A study of Homo sapiens with 2 samples.

Results

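The alcohol dehydrogenases (ADH) and aldehyde dehydrogenases (ALDH) of liver were examined in HepG2, a human hepatoma cell line, with and without silica nanoparticles. The group held 10 genes of the 18417 measured, taken by name: ADH1A, ADH1B, ADH1C, ADH4, ADH5, ADH6, ALDH1A1, ALDH1B1, ALDH2 and ALDH3A2. They were picked with the difference between these same arrays in view, so each difference below describes the arrays and no test was run. The study had 2 Affymetrix microarrays. One array held total RNA of HepG2 cells exposed for 24 h to amorphous SiO2-NP at 100 mg/L in MEM medium, and the other held RNA of control HepG2 cells grown in MEM medium. The labels name neither replicate cultures nor a passage, particle size or vehicle, so each group is a single array of a single cell line.

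The alcohol dehydrogenases of the group are zinc enzymes that use NAD to turn an alcohol into an aldehyde or ketone. Aldehyde dehydrogenases then oxidise the aldehyde to an acid. In hepatocytes the pair of steps clears ethanol by way of acetaldehyde to acetate, and related members act on retinol, formaldehyde, long-chain fatty alcohols and aldehydes from lipid peroxidation. The ADH genes other than ADHFE1 lie side by side on chromosome 4, while the ALDH genes are scattered over the genome. HepG2 cells are known to hold much less class I ADH and CYP2E1 than liver does.

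The 250 bases upstream of the RefSeq start are shown for the 3 ADH genes whose signal lay above a level filter (a mean log2 intensity over both arrays of at least 7.26, the median of all genes). All 3 were lower in the exposed cells. They come from RefSeq on GRCh38.p14, on the minus strand, at chr4:99144298-99144547 for ADH4, chr4:99219247-99219496 for ADH6 and chr4:99088789-99089038 for ADH5. Capitals mark matches, on either strand, to the letters TATAAA of the TATA box, to CCAAT of the CCAAT box and to GGGCGG of the GC box. They also mark TTGCNNAA, of the type bound by C/EBP factors. The last letter strings searched were CACGTG, the E-box of USF factors, and AGGTCA, the half-site of nuclear receptors. No 2 matches shown overlap.
ADH4: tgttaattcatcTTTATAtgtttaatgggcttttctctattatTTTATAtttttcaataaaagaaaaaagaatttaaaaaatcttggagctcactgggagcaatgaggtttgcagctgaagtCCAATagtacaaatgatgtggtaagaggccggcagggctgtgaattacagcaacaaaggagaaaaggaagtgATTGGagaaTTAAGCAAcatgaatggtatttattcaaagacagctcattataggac
ADH6: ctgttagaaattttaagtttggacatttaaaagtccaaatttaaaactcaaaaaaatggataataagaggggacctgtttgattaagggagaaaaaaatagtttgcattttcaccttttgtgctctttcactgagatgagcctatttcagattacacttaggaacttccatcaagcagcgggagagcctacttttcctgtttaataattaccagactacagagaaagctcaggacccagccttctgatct
ADH5: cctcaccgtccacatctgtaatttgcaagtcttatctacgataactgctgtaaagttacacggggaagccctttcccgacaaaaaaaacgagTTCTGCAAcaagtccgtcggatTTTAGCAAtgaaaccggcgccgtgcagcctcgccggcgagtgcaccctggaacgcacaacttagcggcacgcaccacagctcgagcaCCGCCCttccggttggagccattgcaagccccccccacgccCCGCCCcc
The last 80 bases before the start of the 3 class I genes are given to show how alike those paralogues are in that stretch. They lie at chr4:99290986-99291065 for ADH1A, chr4:99321402-99321481 for ADH1B and chr4:99352747-99352826 for ADH1C, also on the minus strand.
ADH1A: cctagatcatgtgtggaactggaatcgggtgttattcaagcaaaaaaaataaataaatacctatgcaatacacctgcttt
ADH1B: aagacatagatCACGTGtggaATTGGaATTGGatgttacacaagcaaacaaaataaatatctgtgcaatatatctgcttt
ADH1C: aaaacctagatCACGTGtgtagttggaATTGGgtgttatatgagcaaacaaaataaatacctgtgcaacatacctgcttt

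The upstream windows of ADH4, ADH6 and ADH5 differed from one another in these letters. ADH4 held 2 TATAAA matches, 2 CCAAT matches and 1 TTGCNNAA match. ADH5, whose window was 58% G and C, held 2 GGGCGG and 2 TTGCNNAA matches, whereas the ADH4 window was 34% and the ADH6 window 36.4% G and C. ADH6 held none of the 6 letter strings, which says only that these letters are not in this window. Over all 35116 RefSeq windows of the same length, TATAAA occurred in 10.7%, CCAAT in 32%, GGGCGG in 42.6%, TTGCNNAA in 9.05%, CACGTG in 6.34% and AGGTCA in 12.1%. Of the class I genes, ADH1B and ADH1C each held CACGTG from 69 to 64 bases before the start, and the ADH1A window did not hold it. A match describes sequence and is not evidence of binding. In global alignments of the 250 bases, the 3 pairs of class I genes were 81.5% to 82.2% identical, and the other 12 pairs of ADH members were 45.5% to 55% identical. Of the 10 members, 9 were matched in the RefSeq promoter table, all but ALDH2.

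The deposited value of a gene is a log2 intensity, so a difference of 1 is a 2-fold change. The level filter at 7.26 is not a detection call, and intensities of different probes are not comparable as amounts of RNA. Of the 10 members, 7 lay above the filter, and ADH1A, ADH1B and ADH1C lay under it. Each member was read by 1 probe, and no probe with several gene symbols named a member. A probe here is 1 entry of the deposited values, and how many oligonucleotides an entry summarises is not given in the sources used. Across the 9209 genes above the filter the median difference was -0.03, with an SD of 0.16 across genes and a central 95% from -0.37 to 0.28. Of 12 hepatocyte markers measured, all 12 lay above the filter, while 0 of 6 endothelial and 2 of 8 fibroblast or stellate markers did. The hepatocyte markers had a median difference of 0.04, from -0.10 for ALB to 0.33 for KRT18. ALB read 13.41 in exposed and 13.50 in control cells. Leukocyte markers lay above the filter in 2 of 7 cases (CD68 and LYZ) and bile duct markers in 3 of 4, and their median differences were 0.08 and 0.09. The part of these markers in the results was not tested. In such bulk RNA, fewer cells that express a gene and less RNA per cell cannot be told apart.

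ADH4 was the member that stood out, and it was lower in the exposed cells. ADH4 encodes the class II enzyme of liver, which oxidises ethanol at high concentrations and also accepts retinol and hydroxylated fatty acids. Its log2 intensity was 7.11 in SiO2-NP cells and 8.02 in control cells, a difference of -0.91, or 1.88-fold lower. The exposed value thus fell under the level filter and the control value lay above it. Among the 10 members it alone differed by 1.5-fold or more, against 0.25% of genes above the filter that were at least that much lower and 0.141% that were at least that much higher. Over all 18417 genes, dim ones included, the shares were 0.369% lower and 0.331% higher. The members were chosen on this contrast, so nothing is read from that comparison.

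Only 4 of the 9209 genes above the filter had a lower difference than ADH4, and none of the 4 encodes a protein according to RefSeq. They were the mitochondrial ND2 pseudogene MTND2P28 (-1.32), the vault RNAs VTRNA1-2 (-1.28) and VTRNA1-1 (-1.19), and the small nucleolar RNA SNORA38B (-1.04). As a description, this places ADH4 lowest among the 8891 genes above the filter that RefSeq lists as protein-coding. ADH4 was chosen on the same difference and passed the filter through its control value, so its place supports nothing further. The next was GSTA1, an alpha class glutathione transferase, at -0.80 (9.12 in SiO2-NP and 9.92 in control cells). Among the 500 other genes nearest to ADH4 in mean level, the central 95% of differences ran from -0.38 to 0.32, and 1 gene lay lower. By Euclidean distance over both log2 values, the 3 genes above the filter nearest to ADH4 were VTRNA1-1 at 0.205, and the zinc finger genes ZNF486 at 0.278 and ZNF273 at 0.293. That likeness rests on 2 arrays.

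**Figure D1:**
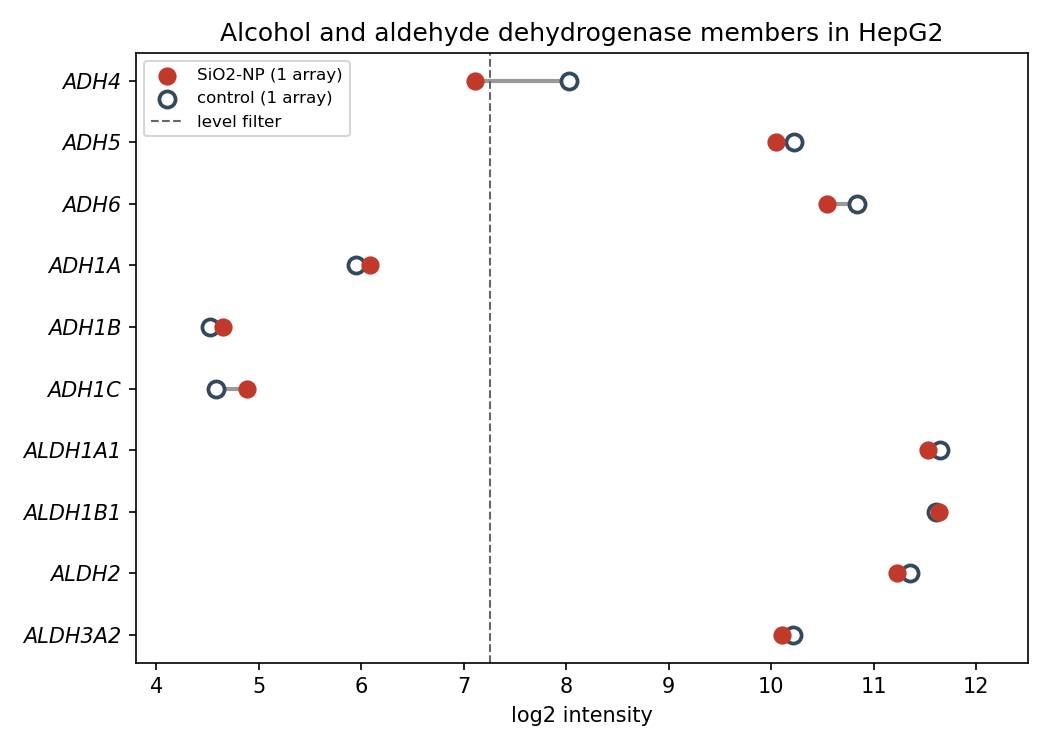
Log2 intensity (horizontal axis) of the 10 members, with 1 filled point for the SiO2-NP array and 1 open point for the control array. The dashed line is the level filter at 7.26, and positions of different genes do not compare amounts of RNA. ADH4 has the widest gap, with 7.11 in exposed and 8.02 in control cells, and crosses the line.

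ADH6 and ADH5, the other members of the chromosome 4 cluster above the filter, were lower by smaller amounts. ADH6 encodes the class V enzyme, known in humans mainly from its liver transcript. It read 10.55 in SiO2-NP cells and 10.84 in control cells, a difference of -0.30 (1.23-fold lower). Of the 500 other genes nearest in level, 16 lay lower than ADH6, whose difference was inside their central 95% of -0.32 to 0.27. ADH5 encodes the class III enzyme, which oxidises the glutathione adduct of formaldehyde, reduces S-nitrosoglutathione and is found in every tissue. ADH5 read 10.04 in SiO2-NP cells and 10.22 in control cells, a difference of -0.18, and 63 of the 500 genes of like level lay lower. The differences of the 3 ADH genes above the filter spanned -0.91 to -0.18.

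The class I genes, whose subunits carry out most ethanol oxidation in liver, read slightly higher in the exposed cells at dim signal. ADH1A read 6.09 in SiO2-NP cells and 5.95 in control cells, a difference of 0.14. ADH1B read 4.65 in SiO2-NP cells and 4.52 in control cells, a difference of 0.13. ADH1C read 4.89 in SiO2-NP cells and 4.59 in control cells, a difference of 0.30 (1.23-fold higher). Genes at this dim level read higher in general: 64.3% of the 9208 genes under the filter were above control, with a median of 0.07, against 40.2% of the genes above it. Of the 500 genes nearest in level, 195 lay above ADH1A, 179 above ADH1B and 57 above ADH1C, so all 3 were inside the central 95% of such genes. The upstream windows of the class I paralogues are alike, but their transcripts and probes were not compared. A probe of one may also pick up the others, which was not tested.

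**Figure D2:**
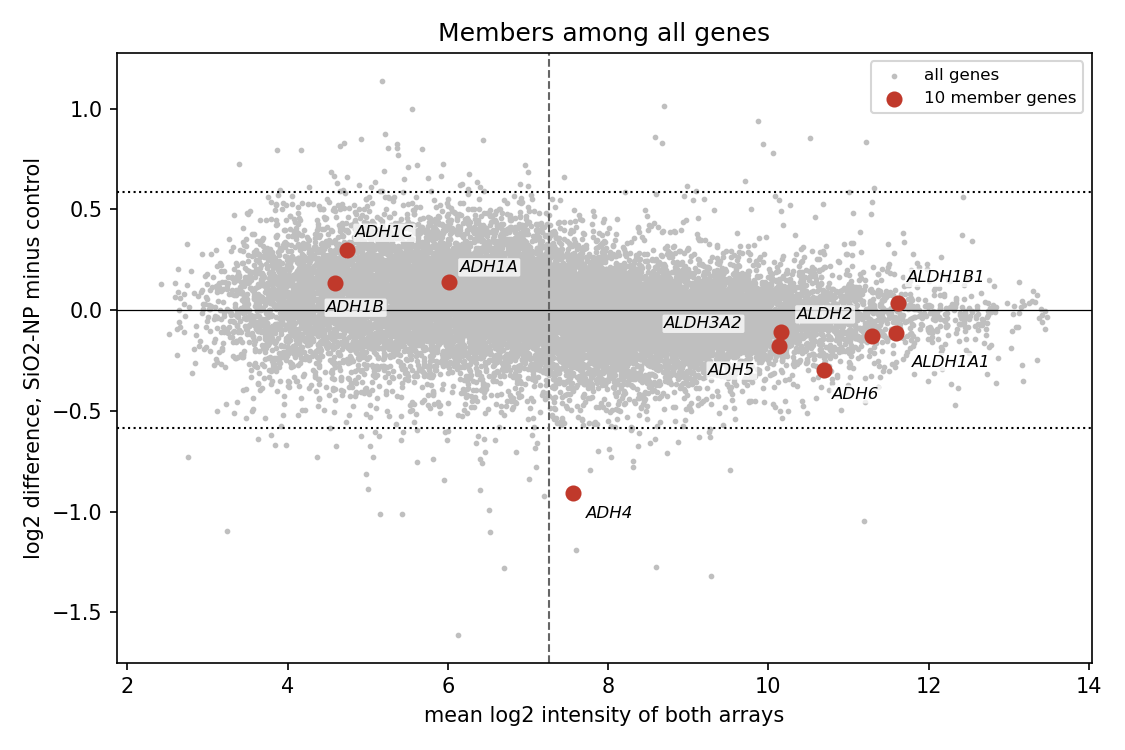
Log2 difference, SiO2-NP minus control (vertical axis), against mean log2 intensity of both arrays (horizontal axis), for all 18417 genes in grey and the 10 members in red. Dotted lines mark 1.5-fold and the dashed line the level filter at 7.26. ADH4 lies at -0.91, below the grey cloud at its level, and the other 9 members lie inside the dotted lines, between -0.30 and 0.30.

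The 4 ALDH members gave bright signal on both arrays and differed little between them. ALDH2, the mitochondrial enzyme that removes most acetaldehyde formed from ethanol, read 11.23 in SiO2-NP cells and 11.35 in control cells, a difference of -0.13. ALDH1B1, its mitochondrial relative, read 11.64 in SiO2-NP cells and 11.60 in control cells, a difference of 0.03. The sign of ALDH1B1 was thus opposite to that of ALDH2, in the same compartment, by an amount well inside the spread of genes of like level (-0.30 to 0.28). ALDH1A1, the cytosolic enzyme that makes retinoic acid from retinaldehyde, read 11.53 in SiO2-NP cells and 11.65 in control cells, a difference of -0.12. ALDH3A2, the fatty aldehyde dehydrogenase whose loss causes Sjögren-Larsson syndrome, read 10.10 in SiO2-NP cells and 10.21 in control cells, a difference of -0.11. The largest ALDH member difference was 1.09-fold. Between 101 and 361 of the 500 genes of like level lay lower than each of these 4 genes.

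As a group, the members above the filter leaned lower, as most genes above it did. Of the 7, 6 were below control, against 59.8% of all genes above the filter, and their median was -0.13, against -0.03. Without ADH4 the median of the other 6 was -0.12, but a median can move little when a single extreme gene is dropped. The members were chosen on this contrast, so nothing further is read from their lean. Over all 10 members, 6 were below and 4 above control, with a median of -0.11, against 47.6% below and a median of 0.01 over all 18417 genes.

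The remaining 17 genes of both families, taken by name, formed a wider list, and none of them differed by 1.5-fold. Over all 18417 genes, 0.369% were at least 1.5-fold lower and 0.331% at least 1.5-fold higher. Of the 9 above the filter, 7 were below control, against 59.8% of all genes above it, with a median of -0.15 against -0.03. Over all 17, dim ones included, 8 were below and 9 above control, with a median of 0.01. Of all 18417 genes, 47.6% were below control, and their median was also 0.01. ALDH6A1, which acts in valine breakdown, had the largest difference above the filter, -0.35 as the mean of 2 probes that read -0.35 and -0.34. The brighter probe read 9.10 in SiO2-NP and 9.44 in control cells, and the other, under the filter, 5.83 and 6.18. Its level, and so its genes of like level, came from the mean of both and match neither probe. ALDH7A1, of lysine breakdown, differed by -0.27, with 10.18 in SiO2-NP cells and 10.44 in control cells. ALDH16A1 differed by -0.22, the folate enzyme ALDH1L1 by -0.19, the succinic semialdehyde dehydrogenase ALDH5A1 by -0.15 and ALDH3B1 by -0.11. ALDH9A1, of carnitine synthesis, differed by -0.03. The proline enzymes ALDH4A1, of breakdown, and ALDH18A1, of synthesis, differed by 0.07 and 0.01.

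Among the 8 further genes under the filter, 7 read above control, with a median of 0.08. ADH7, the class IV retinol-oxidising enzyme of stomach, differed by 0.39, with 5.30 in SiO2-NP cells and 4.91 in control cells. ALDH1A2, a retinaldehyde dehydrogenase important in embryos, differed by 0.38, with 5.98 in SiO2-NP cells and 5.59 in control cells. Of the 500 genes nearest in level, 27 lay above ADH7 and 23 above ALDH1A2. The 2 probes of ALDH1A3 disagreed, at 0.29 and -0.17. The rest (ADHFE1, ALDH1L2, ALDH3A1, ALDH3B2 and ALDH8A1) lay between -0.01 and 0.10. In all, of the 27 genes of both families, 13 of 16 above the filter were below control, against 59.8% of all genes above it. Under the filter 10 of 11 were above control, against 64.3% of all genes under it. Of those 10, ADHFE1, ALDH1A3 and ALDH3A1 fell below control (-0.048, -0.003 and -0.006) once differences were centred on the median of genes of like level.

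**Figure D3:**
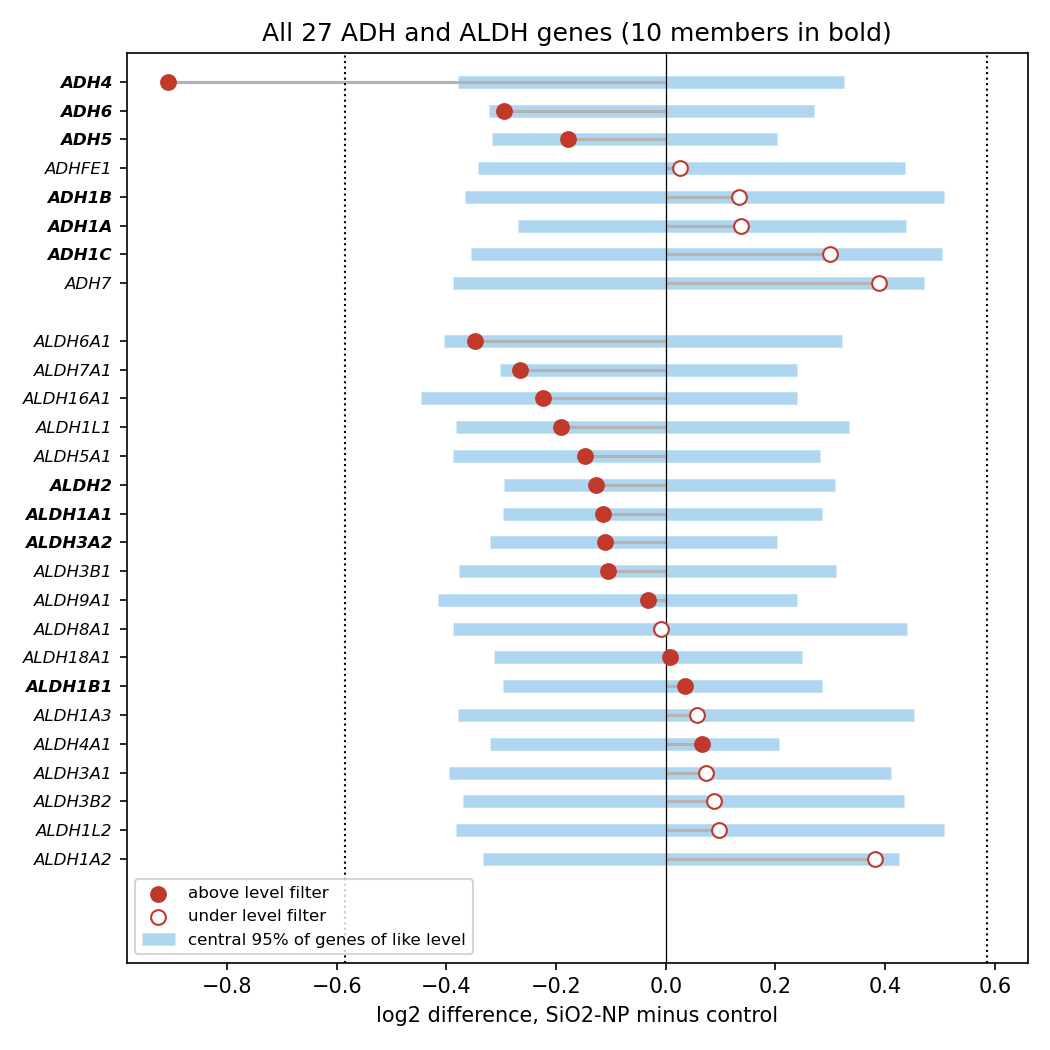
Log2 difference, SiO2-NP minus control (horizontal axis), of the 8 ADH and 19 ALDH genes, the members in bold. Filled points lie above the level filter and open points under it, blue bars span the central 95% of the 500 other genes nearest in level, and dotted lines mark 1.5-fold. ADH4, at -0.91, lies outside its bar and the other 26 genes lie inside theirs, which describes the difference that the members were chosen on.

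Along chromosome 4 the ADH genes above the filter read lower and the dim ones read higher. RefSeq places ADH5, ADH4, ADH6, ADH1A, ADH1B, ADH1C and ADH7 in this order, with METAP1 before and C4orf17 after them among protein-coding genes. The differences in that order were -0.18, -0.91, -0.30, 0.14, 0.13, 0.30 and 0.39. The 3 genes nearest METAP1 were lower and lay above the filter, and the 4 nearest C4orf17 were higher and lay under it. Of all 9208 genes under the filter, 64.3% read above control. Every ADH gene of the cluster but ADH4 lay inside the central 95% of genes of like level. METAP1, a methionine aminopeptidase, differed by -0.09, and C4orf17, a dim gene, by 0.21. MTTP, which loads lipid onto apolipoprotein B and lies 3 protein-coding genes beyond ADH7, differed by -0.25, with 10.19 in SiO2-NP cells and 10.44 in control cells. TSPAN5, a tetraspanin gene on the METAP1 side, had the largest difference of the neighbours, 0.37, at dim signal (6.02 in SiO2-NP and 5.65 in control cells). All 5 neighbours above the filter in a list of 10 were below control, against 59.8% of all genes above it, with a median of -0.09. None of the 5 differed by 1.5-fold, as 0.391% of all genes above the filter did.

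Genes of the steps that flank these enzymes were read from lists. In the ethanol and acetate list, CYP2E1, the microsomal ethanol oxidase, was dim (6.56 in SiO2-NP and 6.39 in control cells), and catalase, CAT, differed by 0.01. This list had 5 genes measured, 4 of them above the filter. Of the acetate-activating enzymes, ACSS2, in the cytosol and nucleus, read 10.35 in SiO2-NP cells and 9.41 in control cells, a difference of 0.94. ACSS2 was the only gene outside the families in these lists at 1.5-fold or more. As background, 0.391% of genes above the filter passed that size in either direction, and 0.141% did so upward. With dim genes counted too, the upward share was 0.331%. The lists were chosen with earlier results known, so nothing further is read from this. Mitochondrial ACSS1 differed by -0.24 and ACSS3 by 0.10.

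In the formaldehyde and glutathione list, all 5 genes above the filter were below control, against 59.8% of all such genes, with a median of -0.13 against -0.03. ESD, the esterase that follows ADH5 in formaldehyde removal, differed by -0.20 (9.01 in SiO2-NP and 9.21 in control cells), and GCLC, of glutathione synthesis, by -0.16. In the retinol list, 4 of 6 genes above the filter were above control, against 40.2% of all such genes, with a median of 0.13. That median was 0.02 when probes with several symbols were counted and 0.05 without the filter. The 4 genes included DHRS3 at 0.30, which reduces retinaldehyde and is a known retinoic acid target, and RDH11 at 0.25, a retinal reductase. In the retinoic acid receptor list 5 of 6 genes were measured, and RARA had no value. The list had 2 genes above the filter, RXRA at -0.04 and RXRB at 0.06. Its largest differences were in dim genes, RXRG at 0.29 and RARB at 0.25.

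Among fatty alcohol and omega oxidation genes the 7 above the filter had a median of 0.02, with HACL1, of peroxisomal alpha oxidation, at -0.34. The list's largest differences were under the filter, in the omega hydroxylases CYP4F2 (0.57, the nearest to 1.5-fold) and CYP4A11 (-0.45). Among other carbonyl enzymes 9 of 11 above the filter were below control, against the same 59.8%, with a median of -0.09, led by the aldo-keto reductases AKR1B10 at -0.45 and AKR1D1 at -0.44. Of the known liver regulators of ADH genes above the filter, 5 of 7 were above control, against 40.2% of all such genes, with a median of 0.04. Their largest differences above the filter were DBP at 0.12, a clock output factor, and CEBPA at -0.11, a liver-enriched factor, and the dim NR1I3 differed by 0.18.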

How the data were processed

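Per the labels' protocols, total RNA of exposed and control HepG2 cells was converted to cDNA, amplified and biotin-labelled. The deposited table holds 1 log2 intensity for every probe on each array, a scale inferred from its values (2.08 to 14.4, medians of 6.69 in the SiO2-NP and 6.65 in the control array). RMA and MAS5 are named in the submitters' processing notes, but which one made the values is not given in the sources used here, nor is the build. Equalising the arrays, as RMA does, would hide a change shared by most transcripts.

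Of 33297 probes, 19460 had 1 gene symbol in the platform annotation and were averaged per gene, giving 18417 genes. The 1754 probes with several symbols and the 12083 without one were left out. All 29 probes of the 27 ADH and ALDH genes had a gene identifier with the same symbol in RefSeq GRCh38.p14.

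The effect is the SiO2-NP minus control log2 difference. Neither group was replicated, so no error, test or p-value could be had, and precision is limited by the number of arrays. The members and lists were chosen with earlier results of these data known. Named genes were all members, all other ADH and ALDH genes, the 2 largest absolute differences of each list, the 3 genes nearest to ADH4, and any gene a result turned on. The last kind (those ranked beside ADH4, and single genes such as ALB, CAT and METAP1) was named after values were seen. Calculations were tested on simulated data. Alignments scored 1 for a match, -1 for a mismatch, -2 to open and -0.5 to extend a gap. Python 3.11.15, NumPy 2.4.6, pandas 2.3.3, SciPy 1.17.1, Biopython 1.88 and matplotlib 3.10.9 were used.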

Additional observations from a re-analysis of the deposited data

How the results depend on the processing

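The differences of the 10 members kept their sign under centring on the median, centring on a running median over genes of like level, and quantile normalization, and moved by at most 0.10. ADH4 ranged from -0.92 to -0.90 and stayed past 1.5-fold. Taking the brightest probe or counting probes with several symbols changed no member, since each had 1 probe. At 2-fold, 0 members were lower, because ADH4 is short of that size, and 0 were with the filter at the 75th percentile, which leaves ADH4 out. At the lowest threshold tried, 0.32 on the log2 scale, 1 of the 9 other ADH and ALDH genes above the filter passed (ALDH6A1). The background of genes 1.5-fold higher was 0.228% after the running median, 0.239% after quantile normalization and 0.331% without the filter, against 0.141%. At 2-fold, 0.0434% of genes were lower and 0.0109% higher, and at that lowest threshold 4.27% and 1.52%. A value for a gene or list was taken as moved when it shifted by more than 0.16, the SD across genes above the filter, as no replicate spread exists. By that measure the ALDH1A3 difference moved to 0.29 with its brightest probe, and the median of the ADH members moved to -0.02 without the filter, against -0.30, since dim class I genes then count. The median of all ADH genes was 0.08 without the filter. Over the scalings, probe rules and filters tried, the median of the members ranged from -0.14 to -0.07, the latter under quantile normalization. The medians of lists ranged from -0.16 to 0.01 for the other ADH and ALDH genes, 0.02 to 0.20 for retinol genes and -0.18 to -0.03 for the neighbours. They ranged from -0.10 to -0.04 for carbonyl enzymes and 0.03 to 0.10 for liver regulators. ADHFE1, ALDH1A3, ALDH3A1, ALDH9A1 and ALDH18A1 changed sign under at least 1 scaling, each from a difference of under 0.08 in size. No paired analysis was possible because there was a single array of each kind, and no replicate could be left out for the same reason. Pseudocounts were not needed on a log2 table.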
